A study of Mus musculus with 8 samples.

Results

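The genes of the Toll-like receptors, Tlr1 to Tlr9, and of their adaptor Myd88 were read in inguinal white adipose tissue, the subcutaneous fat pad of the groin. They were taken by gene name from the deposited table, which held 1 row for each of these 10 genes among 54532 genes. The study sequenced messenger RNA of male mice kept on a high-fat diet, 4 libraries from wild type (WT) and 4 from mice whose adipocytes lack the transcription factor KLF10 (KLF10AKO), in work on FOXO1, KLF10 and fat breakdown. The diet and the sex were shared by both groups. The sources used here do not state which driver made the deletion, the strain, the age, or which animal each library came from. A p-value therefore weighs a difference against the spread of the libraries, which may be technical. Values are FPKM, reads per gene divided by gene length and by a library size that the authors set, and they can be compared between genes because they are per length.

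Toll-like receptors are membrane proteins of innate immunity that bind molecules of microbes and of damaged cells. TLR1, TLR2, TLR4, TLR5 and TLR6 act at the cell surface on lipopeptides, lipopolysaccharide and flagellin, while TLR3, TLR7, TLR8 and TLR9 act in endosomes on nucleic acids. MyD88 carries the signal of all of them except TLR3 to IRAK kinases, TRAF6 and NF-κB. In fat, TLR4 is studied as a sensor of lipopolysaccharide and saturated fat on adipocytes and macrophages. TLR7 and TLR9 are known chiefly from B cells and plasmacytoid dendritic cells.

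Reads recovered from the FPKM came to between 15537863 and 17499132 per library. Klf10, the targeted gene, had 18.2 ± 2.09 FPKM in the WT libraries, and 9.60 ± 0.157 remained in the KLF10AKO libraries (SD, n = 4 per group), a log2 change of -0.88 (limma adjusted p = 8.96e-06) that became 0.81 after scaling to adipocyte markers. The deposited value is per gene and does not resolve the deleted part. Cell type markers separated the groups, and KLF10AKO replicates 1 to 3 held skeletal muscle genes far above replicate 4 and WT: 10 muscle markers summed to between 166 and 219 FPKM in WT and between 35.0 and 10053 in KLF10AKO. Of 16 adipocyte markers 16 were lower in KLF10AKO, with sums of 21144 to 23904 FPKM in WT and 6590 to 8951 in KLF10AKO, and all 10 B cell markers were higher, with sums of 4.78 to 5.57 against 1516 to 2222. Each of these adipocyte and B cell markers passed limma's test at an adjusted p under 0.05. Over all genes tested 39.4% were higher and 34.9% lower. B cell markers near 0 in WT met the minimum mean of 0.5 FPKM through their KLF10AKO level, which favours rises. Scaling every library to the adipocyte markers, moreover, adds 1.69 to the median log2 change of all genes. In tissue RNA, more cells of a type and more RNA per cell cannot be told apart.

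The receptors did not move as 1 block. Tlr1, Tlr9 and Tlr7 stood far higher in KLF10AKO, 29.2-fold, 18.7-fold and 6.34-fold by the means, Tlr6, Tlr2 and Myd88 were 2.31-fold, 2.06-fold and 1.72-fold higher, and Tlr3 did not pass the test. Tlr8, Tlr4 and Tlr5 were lower, 2.74-fold, 1.92-fold and 1.60-fold, in FPKM as the authors scaled them, although these falls turned to rises when libraries were scaled to adipocyte markers. All 10 genes were above the minimum mean of 0.5 FPKM, and 6 rose, 3 fell and 1 did not pass in the limma fit over 16012 genes. Over all genes tested 74.3% passed, 39.4% higher and 34.9% lower, so the 9 that passed are read against a background in which most genes passed. The 8 values of WT and KLF10AKO did not overlap for 9 of the 10 genes, against 69.2% of all genes tested. The median log2 change of the 10 genes was 0.80, and that of all genes was 0.05. Each of those 9 genes had an exact two-sided permutation p of 0.0286, the lowest possible for 2 groups of 4.

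**Figure D1:**
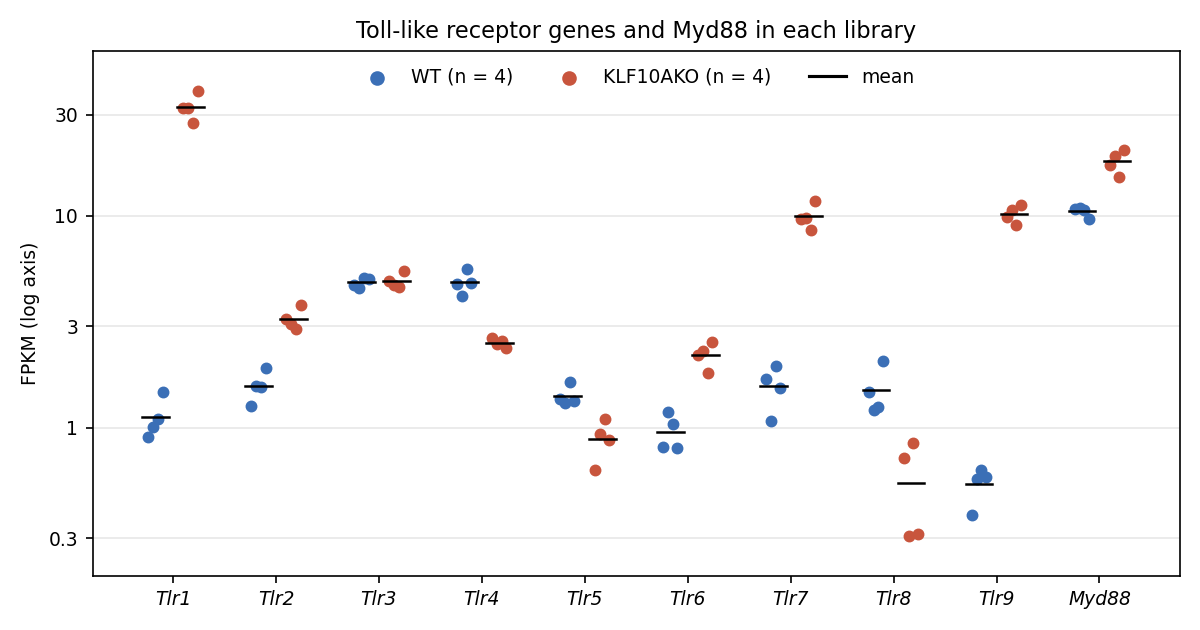
FPKM of each gene (log axis) in the 4 WT and the 4 KLF10AKO libraries, with a bar at each mean. Tlr1 lies between 0.90 and 1.47 in WT and between 27.2 and 38.8 in KLF10AKO, and Tlr3 is the gene whose groups overlap.

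TLR1 and TLR6 are close relatives that each pair with TLR2, TLR1 for triacylated and TLR6 for diacylated bacterial lipopeptides. Tlr1 (ENSMUSG00000044827, mm10 chromosome 5, 64924679 to 64933563, minus strand) stood at 0.90, 1.01, 1.10 and 1.47 FPKM across the WT libraries, against 32.1, 32.3, 27.2 and 38.8 across the KLF10AKO libraries, both in the order of replicates 1 to 4 as in all such lists here. Every KLF10AKO library was far above every WT library, with replicate 4 highest and replicate 3 lowest. The log2 change was 4.36 (standard error 0.130, limma adjusted p = 1.40e-08), on the scale of log2(FPKM + 0.5) used for all fitted changes here, which understates changes of low genes. Behind these values were 45 to 72 reads per library in WT and 1653 to 2290 in KLF10AKO.

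Tlr6 (ENSMUSG00000051498, chromosome 5, 64952031 to 64960097, minus strand) lies 18467 bases from Tlr1 on the same strand. It stood at 0.808, 1.18, 1.04 and 0.804 FPKM across the WT libraries, against 2.19, 2.30, 1.81 and 2.52 across the KLF10AKO libraries, again without overlap and with KLF10AKO replicate 4 highest. Its log2 change was 0.90 (standard error 0.124, limma adjusted p = 1.65e-04), so the neighbours rose to very different extents. Of 3282 windows of 100 bases in Tlr1 transcripts, 259 (7.89%) are also found in Tlr6 transcripts, so reads from those stretches could have been split between the genes or left out.

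Tlr2 (ENSMUSG00000027995, chromosome 3, 83836272 to 83841767, minus strand), the common partner, stood at 1.27, 1.58, 1.55 and 1.92 FPKM across the WT libraries, against 3.24, 3.08, 2.91 and 3.78 across the KLF10AKO libraries. The lowest KLF10AKO library was above the highest WT library, and in both groups replicate 4 was highest. The log2 change was 0.86 (standard error 0.114, limma adjusted p = 1.27e-04), close in size to that of Tlr6 and far under that of Tlr1.

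The DNA just before a listed start site of Tlr1 and of Tlr6 is shown because these neighbours differ so much in their rise. Each line gives the 250 bases upstream of a RefSeq start site (GRCm38.p6), 5′ to 3′ on the gene's strand, with matches to any of 4 motifs in capitals.
Tlr1 (chr5:64933559-64933808, minus strand): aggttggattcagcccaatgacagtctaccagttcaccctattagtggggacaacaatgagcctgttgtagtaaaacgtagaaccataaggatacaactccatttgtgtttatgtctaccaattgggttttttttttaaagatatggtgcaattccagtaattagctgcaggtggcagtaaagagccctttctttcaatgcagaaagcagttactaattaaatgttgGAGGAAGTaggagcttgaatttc
Tlr6 (chr5:64959167-64959416, minus strand): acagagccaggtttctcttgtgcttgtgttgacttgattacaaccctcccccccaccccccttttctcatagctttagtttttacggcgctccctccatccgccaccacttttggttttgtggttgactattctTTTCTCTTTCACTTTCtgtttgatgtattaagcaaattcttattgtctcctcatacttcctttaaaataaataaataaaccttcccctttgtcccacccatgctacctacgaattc
The motifs searched on both strands were the octamer ATGCAAAT, the PU.1 site GAGGAAGT, the interferon-stimulated element (GAAA, any 2 bases, GAAA) and the κB site (GGG, any 2 bases, TT, any base, CC). They were found in 1.60%, 2.44%, 2.98% and 4.11% of 32851 such windows of all genes. Tlr1, at 1 of its 2 listed starts, held a PU.1 match 23 bases before it, a motif bound by a factor of myeloid and B cells. Tlr6, at 1 of its 2 listed starts, held overlapping matches to the interferon-stimulated element, on the other strand, 116 and 110 bases before it. These matches are letters in a window and were not measured as bound sites. For both genes the window printed is the one with a match. That of Tlr1 lies at the 5′ end of the gene's span, whereas that of Tlr6 lies within its span. The Tlr6 window at the 5′ end of its span held no match, so the 2 printed sequences do not precede like starts.

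Tlr4 (ENSMUSG00000039005, chromosome 4, 66827584 to 66930284, plus strand), the lipopolysaccharide receptor, stood at 4.78, 4.17, 5.61 and 4.79 FPKM across the WT libraries, against 2.64, 2.48, 2.56 and 2.38 across the KLF10AKO libraries. All KLF10AKO libraries lay below all WT libraries and close together. The log2 change was -0.82 (standard error 0.0874, limma adjusted p = 3.00e-05). Scaling to adipocyte markers turned it to 0.87. Tlr5 (ENSMUSG00000079164, chromosome 1, 182954788 to 182976044, plus strand), the flagellin receptor, stood at 1.37, 1.31, 1.64 and 1.34 FPKM across the WT libraries, against 0.628, 0.935, 1.09 and 0.875 across the KLF10AKO libraries. Here the groups came nearest to each other, at 1.31 and 1.09 FPKM. The log2 change of Tlr5 was -0.48 (standard error 0.128, limma adjusted p = 0.00813). Scaling to adipocyte markers turned it to 1.21. With TPM the call on Tlr5 was lost at -0.42 (limma adjusted p = 0.0623).

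Among the endosomal receptors, Tlr9 and Tlr7 rose and Tlr8 fell in FPKM as the authors scaled them. Tlr9 (ENSMUSG00000045322, chromosome 9, 106222598 to 106226883, plus strand), the receptor of unmethylated CpG DNA, stood at 0.385, 0.571, 0.632 and 0.587 FPKM across the WT libraries, against 9.89, 10.6, 9.05 and 11.2 across the KLF10AKO libraries. It was the lowest of the 10 genes in WT, with 20 to 33 reads per library, and had 571 to 699 reads in KLF10AKO. Its log2 change was 3.36 (standard error 0.101, limma adjusted p = 1.43e-08).

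Tlr7 and Tlr8, both receptors of RNA, lie 40599 bases apart on the X chromosome and went opposite ways. Tlr7 (ENSMUSG00000044583, chromosome X, 167304929 to 167330558, minus strand) stood at 1.69, 1.08, 1.96 and 1.53 FPKM across the WT libraries, against 9.65, 9.73, 8.59 and 11.7 across the KLF10AKO libraries. The groups were far apart, and the log2 change was 2.35 (standard error 0.144, limma adjusted p = 9.76e-07). Tlr8 (ENSMUSG00000040522, chromosome X, 167242696 to 167264329, minus strand) stood at 1.47, 1.21, 1.24 and 2.07 FPKM across the WT libraries, against 0.721, 0.309, 0.846 and 0.316 across the KLF10AKO libraries. The KLF10AKO libraries split into a higher pair, replicates 1 and 3, and a lower pair, replicates 2 and 4, with 20 to 55 reads in all. The log2 change of Tlr8 was -0.95 (standard error 0.215, limma adjusted p = 0.00319). Scaling to adipocyte markers turned it to 0.74.

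Tlr3 (ENSMUSG00000031639, chromosome 8, 45395665 to 45411080, minus strand), the receptor of viral RNA duplexes and the one that signals without MyD88, stood at 4.72, 4.55, 5.08 and 5.05 FPKM across the WT libraries, against 4.92, 4.69, 4.60 and 5.45 across the KLF10AKO libraries. The ranges of the groups overlapped. The log2 change was 0.02 (95% interval -0.14 to 0.18, limma adjusted p = 0.846, exact two-sided permutation p = 0.83). Scaling decided its sign: the change was 1.70 after scaling to adipocyte markers and -0.22 with quantile normalization, both past limma's threshold. Exons of the antisense gene Gm45542 cover 381 of its 5207 bases, and without a stated strand setting reads there cannot be told apart.

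The upstream DNA of Tlr9 and Tlr8 is shown because these endosomal receptors moved in opposite directions, printed by the same rule.
Tlr9 (chr9:106222348-106222597, plus strand): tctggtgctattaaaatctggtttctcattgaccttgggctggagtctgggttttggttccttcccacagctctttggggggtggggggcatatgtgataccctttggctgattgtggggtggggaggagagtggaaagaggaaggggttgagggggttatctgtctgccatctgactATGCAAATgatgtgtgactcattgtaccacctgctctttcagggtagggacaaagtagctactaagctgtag
Tlr8 (chrX:167264330-167264579, minus strand): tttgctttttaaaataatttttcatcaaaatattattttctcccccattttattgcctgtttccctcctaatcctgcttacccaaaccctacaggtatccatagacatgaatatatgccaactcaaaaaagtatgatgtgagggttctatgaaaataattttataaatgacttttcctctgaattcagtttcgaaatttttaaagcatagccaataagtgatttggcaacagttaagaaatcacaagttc
Tlr9 held an octamer, the motif known from immunoglobulin promoters, 72 bases before its start. None of the 4 motifs was found in the Tlr8 window, which says only that these letters are not there. Upstream windows were matched for 8 of the 10 genes, all but Tlr4 and Tlr7. No motif was found in the window of Tlr5 or in the other listed windows of Tlr1 and Tlr6, while Tlr2 and Tlr3 each held a κB match and Myd88 an interferon-stimulated element. The risen genes with a window, Tlr1, Tlr2, Tlr6, Tlr9 and Myd88, thus each held a match in a listed window, though Tlr1 and Tlr6 not in both. So did Tlr3, which did not pass. For Tlr6, Myd88 and Tlr3 the window with the match lies within the span of the gene. The fallen genes with a window, Tlr5 and Tlr8, held no match, but their falls turned to rises under adipocyte marker scaling. The share of all windows with a match to any of the 4 motifs was not counted. Whether matches go with the direction of change was not tested.

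Myd88 (ENSMUSG00000032508, chromosome 9, 119335934 to 119341411, minus strand), the shared adaptor, stood at 10.7, 10.9, 10.7 and 9.65 FPKM across the WT libraries, against 17.3, 19.2, 15.3 and 20.3 across the KLF10AKO libraries. Its groups did not overlap, and replicate 4 was the highest of KLF10AKO. The log2 change was 0.75 (standard error 0.0903, limma adjusted p = 6.70e-05). Exons of Acaa1a, on the opposite strand, cover 290 of its 2576 bases, and reads there cannot be told apart without a stated strand setting.

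The order of the levels changed between the groups. In WT, Myd88 was highest at 10.5 ± 0.564 FPKM (SD, n = 4), and Tlr3 and Tlr4 followed at 4.85 ± 0.258 and 4.84 ± 0.593, which overlapped. Tlr2, Tlr7, Tlr8, Tlr5, Tlr1 and Tlr6 came next, from 1.58 ± 0.268 down to 0.957 ± 0.183, each overlapping its neighbour in that order, and Tlr9 was last at 0.544 ± 0.109. In KLF10AKO, Tlr1 came first at 32.6 ± 4.74 FPKM (SD, n = 4), above Myd88 at 18.0 ± 2.21. Tlr9 and Tlr7 followed at 10.2 ± 0.916 and 9.93 ± 1.31 and overlapped each other. Below them stood Tlr3, Tlr2, Tlr4, Tlr6, Tlr5 and Tlr8, with overlap between Tlr4 and Tlr6 and between Tlr5 and Tlr8.

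The 9 receptors summed to 18.4 ± 1.59 FPKM in WT and 67.0 ± 7.54 in KLF10AKO (SD over n = 4 libraries per group). Tlr1 took 6.06% ± 1.02 of that sum in WT and 48.5% ± 1.62 in KLF10AKO. Tlr3 and Tlr4 together led in WT, with 26.5% ± 0.896 and 26.3% ± 1.84, and came to 7.36% ± 0.367 and 3.80% ± 0.539 in KLF10AKO. The share of Tlr9 went from 2.96% ± 0.526 to 15.2% ± 0.612, that of Tlr7 from 8.47% ± 1.62 to 14.8% ± 0.294, and that of Tlr8 from 8.15% ± 1.86 to 0.852% ± 0.50. The 5 surface receptors took 54.0% ± 1.56 of the sum in WT and 61.8% ± 0.860 in KLF10AKO. These shares do not depend on scaling each library by 1 factor, though quantile normalization can change them. They are given as a description of the sum, with no test.

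**Figure D2:**
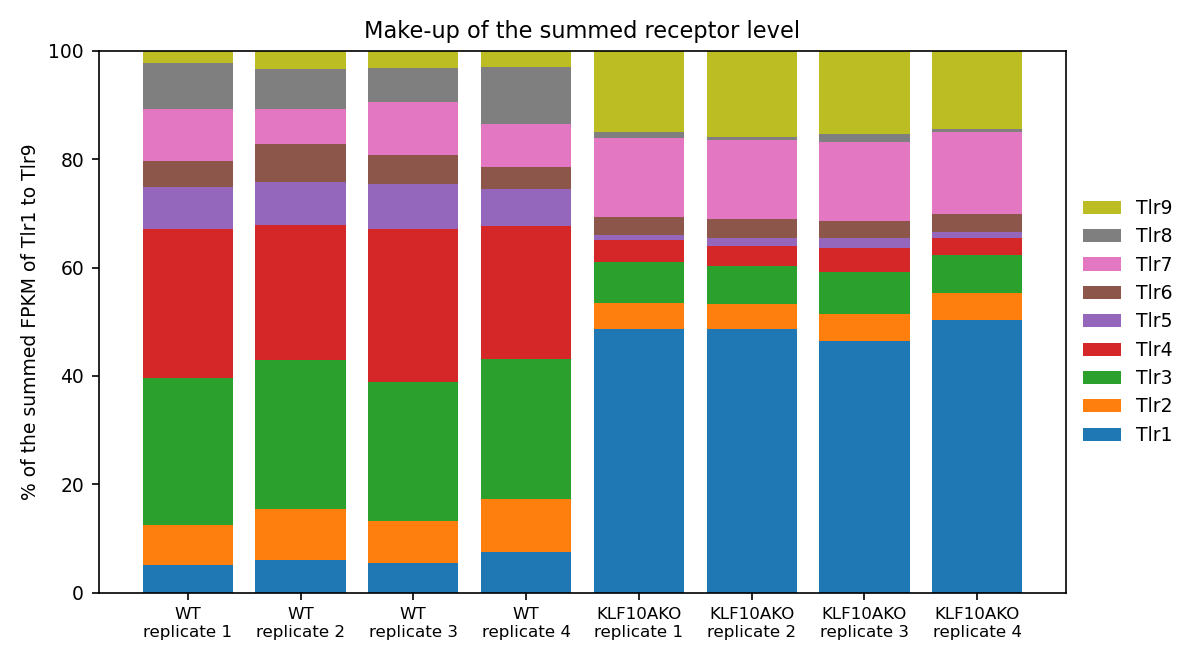
Share of each receptor gene in the summed FPKM of Tlr1 to Tlr9, 1 bar per library. The Tlr1 segment is between 5.18% and 7.49% in WT and between 46.4% and 50.4% in KLF10AKO, and the segments of Tlr3 and Tlr4 are the widest in WT.

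Ratios within a library are also free of scaling by 1 factor per library. The 8 pairs were chosen after the values were seen and are given without a test. The ratio of Tlr7 to Tlr8 lay between 0.741 and 1.57 in WT and between 10.2 and 37.1 in KLF10AKO, where the denominator rests on few reads. The ratio of Tlr1 to Tlr2 was 0.705 ± 0.0511 in WT and 10.01 ± 0.491 in KLF10AKO (SD over n = 4 libraries per group), while that of Tlr6 to Tlr2 was 0.619 ± 0.141 and 0.679 ± 0.0530, with overlapping libraries. Of the partners of Tlr2, Tlr1 was thus the one whose level relative to Tlr2 separated the groups. The ratio of Tlr9 to Tlr7 was 0.366 ± 0.127 in WT and 1.03 ± 0.0575 in KLF10AKO. Myd88 to Ticam1, the adaptor of TLR3 and TLR4, had a ratio of 2.98 ± 0.314 in WT and 3.55 ± 0.223 in KLF10AKO, with no overlap but with 3.21 and 3.24 as the nearest libraries.

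**Figure D3:**
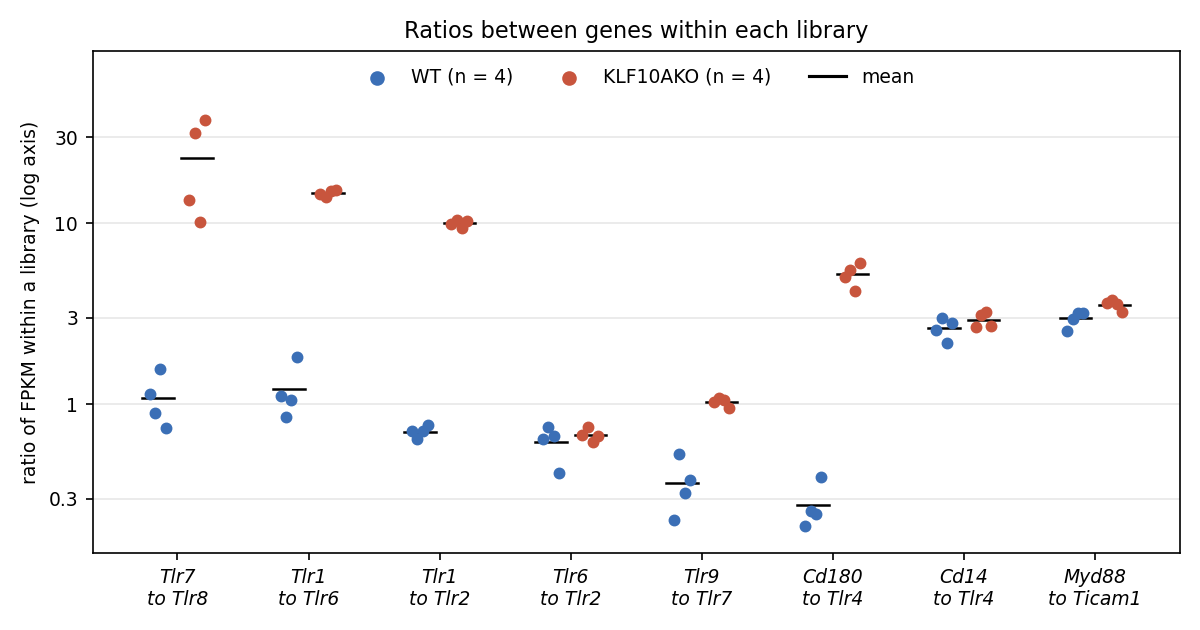
Ratio of the FPKM of named gene pairs within each library (log axis), with a bar at each mean. Tlr1 to Tlr2 lies between 0.639 and 0.763 in WT and between 9.36 and 10.5 in KLF10AKO, and Tlr6 to Tlr2 and Cd14 to Tlr4 overlap.

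Scaling moved the level of all 10 changes and the direction of 4. With TPM, quantile normalization and scaling to macrophage and monocyte markers, the median log2 change of all genes shifted by 0.20, -0.20 and -0.19, and Tlr1, Tlr2, Tlr6, Tlr7, Tlr9 and Myd88 rose under each of them. Tlr4 and Tlr8 fell under these 3 scalings and rose under scaling to adipocyte markers, where all 10 genes rose. The macrophage and monocyte scaling uses the mean log2 level of 12 markers. In KLF10AKO libraries that mean lay 0.07 to 0.29 above WT, although the median log2 change of the markers was -0.13. Ly6c2, with a log2 change of 4.61, raised the mean, and this scaling was not run without it. Calls lost under it carry that limit. When KLF10AKO was represented by replicate 4 alone, the library with few muscle transcripts, and assumed to vary like WT, 6 genes rose and 3 fell as before, with Tlr1 at 4.61, Tlr9 at 3.49 and Tlr8 at -1.27. Leaving out replicate 4, or any other library, also gave 6 higher and 3 lower.

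**Figure D4:**
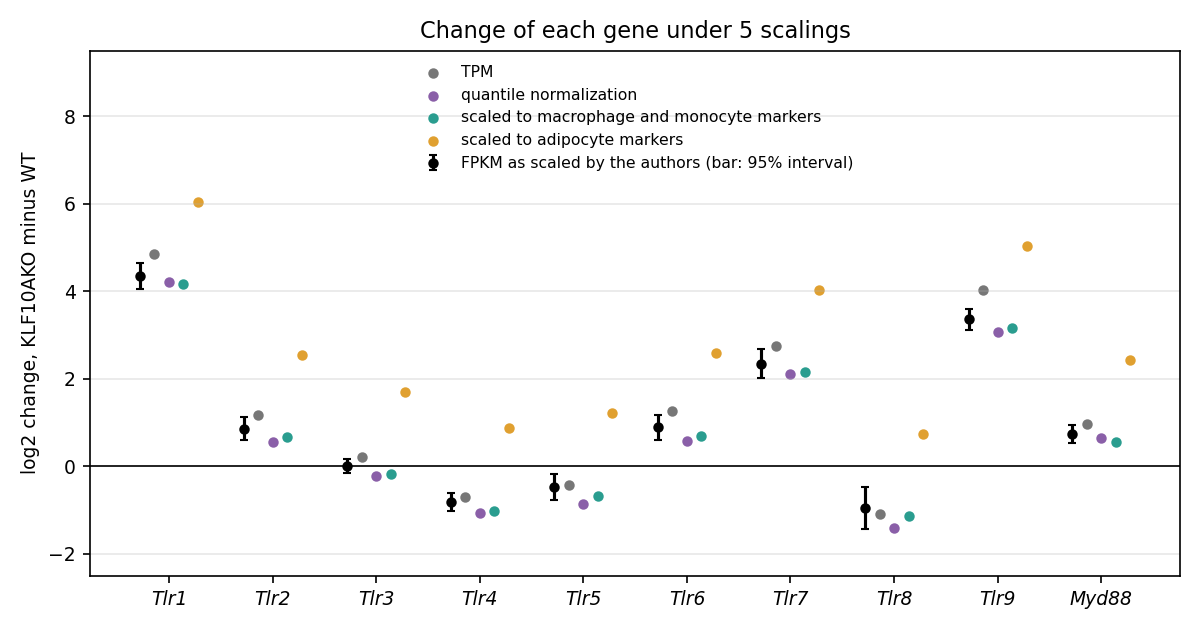
Log2 change of each gene, KLF10AKO minus WT, with FPKM as the authors scaled it (black, bar for the 95% interval) and under 4 other scalings. Tlr4, Tlr5 and Tlr8 are below 0 except when libraries are scaled to adipocyte markers, where they stand at 0.87, 1.21 and 0.74.

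Of the 3 further mouse receptors, Tlr11 and Tlr12, both sensors of protozoan profilin, were higher in KLF10AKO, and Tlr13, a sensor of bacterial ribosomal RNA, did not pass. Tlr12 went from 0.0770 ± 0.0354 to 5.19 ± 0.495 FPKM (SD over n = 4 libraries per group; 15 and 1215 reads in all), a limma log2 change of 3.30. Tlr11 went from 0.192 ± 0.0884 to 2.35 ± 0.579 FPKM, a log2 change of 2.03. Both were under 0.5 FPKM in WT and entered the fit through their KLF10AKO level, so for them passing the filter already required a difference. Tlr13 stood at 1.57 ± 0.335 and 1.32 ± 0.156 FPKM, a log2 change of -0.18 (95% interval -0.48 to 0.12, limma adjusted p = 0.251), although it fell with quantile normalization (-0.51) and rose with adipocyte marker scaling (1.51).

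Of 11 genes whose proteins help receptors bind or travel 6 rose and 4 fell, beside 39.4% higher and 34.9% lower over all genes tested, with a median log2 change of 0.24 against 0.05. Cd14, which hands lipopolysaccharide to TLR4, had 12.7 ± 0.582 FPKM in WT against 7.39 ± 0.821 in KLF10AKO (log2 change -0.74, limma adjusted p = 3.43e-05, turned to 0.94 by adipocyte marker scaling), and its ratio to Tlr4 was 2.65 ± 0.354 and 2.94 ± 0.288, with overlap. Ly96, the MD-2 subunit of that receptor, did not pass at 4.58 ± 0.962 and 4.52 ± 0.835 FPKM. Their relatives, known from B cells and macrophages, rose: Cd180 went from 1.34 ± 0.403 to 13.1 ± 1.55 FPKM and its partner Ly86 from 2.43 ± 0.588 to 24.8 ± 3.42, log2 changes of 2.90 and 3.12. The ratio of Cd180 to Tlr4 was 0.277 ± 0.0803 in WT and 5.22 ± 0.765 in KLF10AKO. Unc93b1, which carries the endosomal receptors to their compartment, went from 37.9 ± 3.95 to 117 ± 11.9 FPKM, a log2 change of 1.61, and Slc15a4, an endosomal transporter needed by TLR7 and TLR9, changed by 1.09. Lbp, the lipopolysaccharide binding protein, and Cd36, a fatty acid receptor that works with TLR2 and TLR6 and abounds on adipocytes, fell by 1.93 and 1.74 on the log2 scale. Under adipocyte marker scaling Lbp still passed at -0.24 and Cd36 did not, at -0.05. Of 5 endosomal proteases that cut the receptors or their cargo 4 fell (median -1.22) and Ctss rose, by 1.68. Ctsb and Ctsl changed by -1.38 and -1.22, which adipocyte marker scaling turned to 0.31 and 0.46.

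Counts of downstream genes are likewise read beside the 39.4% higher and 34.9% lower over all genes tested. Of 5 other TIR adaptor genes 4 were tested and 2 rose: Ticam1, at 3.55 ± 0.516 and 5.10 ± 0.855 FPKM, changed by 0.46 (limma adjusted p = 0.00908), and Pik3ap1, an adaptor of B cells, by 2.90. Tirap, the sorting adaptor of TLR2 and TLR4, and Ticam2, the bridging adaptor of TLR4, did not pass, at log2 changes of 0.02 and -0.07. Both fell with quantile normalization (-0.28 and -0.63) and rose with adipocyte marker scaling (1.70 and 1.62). Of 19 kinases and ubiquitin ligases 18 were tested, 12 rose and 3 fell (median 0.33), with 6 higher and 4 lower under macrophage marker scaling. Irak4 and Traf6, at the core of MyD88 signalling, changed by 0.40 and 0.26, and neither these nor Ticam1 passed with quantile normalization or macrophage marker scaling. Traf3, Ikbke and Ikbkb changed by 1.73, 2.03 and 1.48. Irak2 fell by 0.66, from 44.5 ± 3.38 to 27.9 ± 1.03 FPKM, and changed by 1.03 under adipocyte marker scaling. All 9 NF-κB and IRF factors rose (median 2.05) under each scaling tried. Irf8, Rel, Irf5, Irf7 and Nfkb2 changed by 3.32, 3.12, 2.52, 2.45 and 2.05.

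Of 11 negative regulators 8 rose and 1 fell (median 0.80). Nfkbie, Socs1 and Tnfaip3 changed by 3.24, 2.71 and 1.84, whereas Irak3, the inhibitory kinase of macrophages, did not pass at 5.68 ± 0.778 and 6.17 ± 0.393 FPKM. Of 17 induced cytokines and chemokines 12 were above the filter, and 10 of these rose and 1 fell (median 1.37). Passing the filter through a high KLF10AKO level favours rises in such a count. Ccl5 changed by 4.91, Il12a by 3.89 and Cxcl10 by 3.13. Tnf went from 0.679 ± 0.176 to 8.64 ± 2.53 FPKM, a log2 change of 2.92, and Il1b from 0.200 ± 0.122 to 0.848 ± 0.461, a change of 0.89 (limma adjusted p = 0.0121) that did not pass with quantile normalization or macrophage marker scaling. Il6, at 0.0572 ± 0.0785 and 0.206 ± 0.0458 FPKM, was under the filter, and Ifnb1 had 0 reads in WT and 1 in KLF10AKO. Of 6 receptor genes of the interleukin-1 family that also use MyD88, 2 rose and 1 fell: Il18r1 and Il18rap, the subunits of the IL-18 receptor on T and NK cells, changed by 3.06 and 2.18. Il1rl1, the IL-33 receptor, changed by -0.29 (limma adjusted p = 0.0395) and did not pass without KLF10AKO replicate 4 (adjusted p = 0.0753) or with TPM (-0.20, adjusted p = 0.276). It turned to 1.40 under adipocyte marker scaling.

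**Figure D5:**
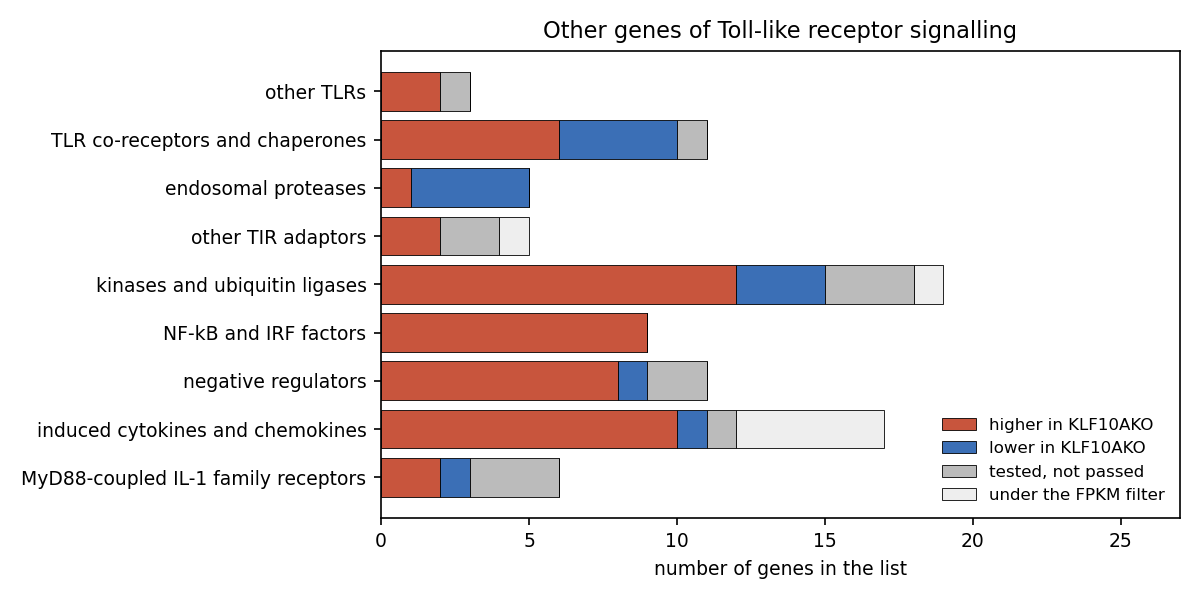
Number of genes in each list of the pathway that were higher, lower or not past limma's threshold in KLF10AKO, or under the filter of 0.5 FPKM. All 9 NF-κB and IRF factors were higher, and 4 of 5 endosomal proteases were lower.

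Markers of the cell types that carry these receptors moved with the groups. The B cell markers Ms4a1 and Cd79a went from 0.0990 ± 0.0457 and 0.813 ± 0.162 to 53.4 ± 7.34 and 468 ± 79.7 FPKM (SD over n = 4 libraries per group). All 10 B cell markers rose by a median log2 change of 6.90, beside 4.36 for Tlr1, 3.36 for Tlr9 and 2.35 for Tlr7. The sizes of these changes cannot be compared directly, since the genes differ in WT level and the added 0.5 FPKM shrinks changes of low genes. With 0.1 added instead, Tlr9 changed by 4.01. Ms4a1 lay under 0.5 FPKM in WT and entered the fit through its KLF10AKO level, as did Siglech below. Passing the filter this way favours rises in the counts of B cell, T and NK cell and dendritic cell markers. The sources used here do not say whether the inguinal lymph node or adjoining muscle was kept out of the dissected tissue, and this was not tested. In KLF10AKO replicates 1 to 4 the mean log2 level of the B cell markers lay 6.96, 7.02, 6.69 and 7.23 above WT. Tlr1, Tlr6, Tlr7, Tlr9 and Myd88 had the same order, with replicate 4 highest and replicate 3 lowest. So did the T and NK cell markers, the conventional dendritic cell markers, the further receptors, the other adaptors, the kinases, the NF-κB and IRF factors, the negative regulators and the cytokines. The order was reversed in the adipocyte, progenitor, endothelial, macrophage and muscle markers. All 10 T and NK cell markers rose as well, with sums of 4.51 to 5.48 FPKM in WT and 270 to 399 in KLF10AKO. Siglech, which marks plasmacytoid dendritic cells, went from 0.456 ± 0.135 to 8.46 ± 1.28 FPKM. In that list 7 of 8 tested markers rose, with sums of 3.37 to 4.86 FPKM in WT and 114 to 200 in KLF10AKO, but Spib is also a B cell gene and Cox6a2 a muscle gene. Of 9 conventional dendritic cell markers 7 rose and 2 fell, with sums of 35.3 to 42.4 and 108 to 138 FPKM. Their changes were uneven. Without KLF10AKO replicate 4, Ccr7 changed by 6.21, against a list median of 1.66, while Cd209a changed by 0.72 and Clec10a by -0.34. In that fit the B cell markers had a median of 6.81 and the T and NK cell markers of 5.02. With replicate 4 as the only KLF10AKO library, Ccr7, Cd209a and Clec10a changed by 6.52, 0.68 and -0.55. Cd209a did not pass with quantile normalization (limma adjusted p = 0.0716), nor Clec10a with TPM (limma adjusted p = 0.193). The counts of all these marker lists are read beside 39.4% higher and 34.9% lower over all genes tested.

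Of 12 macrophage and monocyte markers 4 were higher and 4 lower, shares near those of all genes tested (39.4% and 34.9%), with sums of 424 to 472 FPKM in WT and 697 to 744 in KLF10AKO. Adgre1, which encodes F4/80, stood at 14.4 ± 0.328 FPKM across the WT libraries, against 6.63, 5.40, 9.74 and 2.89 across the KLF10AKO libraries, a log2 change of -1.27 that was 0.42 under adipocyte marker scaling. Cd163 and Mrc1 changed by -1.66 and -1.04 (0.03 and 0.65 under adipocyte marker scaling). Mertk, which serves the uptake of dead cells, changed by -0.47 (1.22 under adipocyte marker scaling). The 4 that rose were Ly6c2, Lyve1, Lyz2 and Ccr2, by 4.61, 1.33, 0.86 and 0.46, and each rose under the other 4 scalings too. Which cells carried these 4 transcripts was not tested. Csf1r and Cd68 did not pass. Tlr8 was higher in KLF10AKO replicates 1 and 3 than in replicates 2 and 4, as were the macrophage, adipocyte, progenitor, endothelial and muscle markers by their mean log2 levels. Of 7 neutrophil markers 4 were tested, with 2 higher and 1 lower, sums of 10.8 to 11.7 FPKM in WT and 7.06 to 7.93 in KLF10AKO, and Ly6g at 1 read in WT and 0 in KLF10AKO. The part of any of these cell types in the changes of the receptors was not tested.

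Libraries within a group were used to name the protein-coding genes whose pattern was most like each receptor, among 12857 such genes. The measure was Pearson's r of deviations from the group means over the 8 libraries. It is given as a description, since depth and tissue make-up are shared by all genes of a library. Picking the highest of 12857 values over only 8 libraries also yields a high r by itself, and no r was tested. Tlr1 was nearest to Slx1b (r = 0.994) and Gpr132 (0.991), of which Gpr132 also rose between the groups, by 4.27. Tlr9 was nearest to Herc3 (0.978), Map3k14 (0.976) and Ccdc107 (0.972). Tlr7 was nearest to Usp22 (0.992), Tlr8 to Col28a1 (0.983), Tlr4 to Nagk (0.973), Tlr2 to Zfp287 (0.984), Tlr6 to Gpr171 (0.991), Tlr3 to Zfp142 (0.986), Tlr5 to Cox15 (0.946) and Myd88 to Gm8369 (0.988). Among the 10 genes themselves, Tlr1 and Tlr2 deviated together (0.94), as did Tlr1 and Tlr3 (0.80) and Myd88 and Tlr6 (0.80), while Tlr8 deviated against Myd88 (-0.93) and Tlr6 (-0.82).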

How the data were processed

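Per the labels, messenger RNA was selected on poly-T beads and primed with random hexamers. The submitters' processing notes name mm10, HISAT2 2.0.5, edgeR 3.22.5 and featureCounts 1.5.0-p3. The sources used here do not give their roles, the annotation release or the strand setting. The authors deposited FPKM and a length per gene. Multiplied by length, 100% of values fell on whole multiples of 1 step per library, within 0.01 of a read, which gave back the reads. Coordinates were those of GENCODE M21 (GRCm38) for 98.3% of matched genes. Moderated linear models (limma 3.58.1, R 4.3.3, trended eBayes) took log2(FPKM + 0.5) of 16012 genes with a mean FPKM of at least 0.5, without covariates. Two-sided p-values were adjusted over all genes (Benjamini-Hochberg) at a threshold of 0.05. Single genes also had exact permutation tests. The procedure was tested on simulated data. Replicate numbers of the labels were not taken as pairs: deviations of same-numbered libraries correlated at 0.00300 to 0.0310. All 12 within-group library pairs differed by more than counting noise. Alternatives were other pseudocounts, filters, scalings, robust eBayes, voom on recovered reads, a replicate block and left-out libraries. The genes, lists and markers were chosen with earlier results of these data known. Named were the 10 genes, set pathway genes and up to 3 further genes of lowest p per list. Ratios, shares and upstream sequences were chosen after seeing the data. Upstream sequences are RefSeq's (GRCm38.p6). Read counts cover counting error only. Values of some single genes are not reported here.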

Additional observations from a re-analysis of the deposited data

How the results depend on the processing

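Of the 10 genes, Tlr1, Tlr2, Tlr6, Tlr7, Tlr9 and Myd88 kept their direction and passed limma's threshold under each alternative in which they were tested. Scaling to adipocyte markers gave 15105 genes higher and 91 lower, and 10 of the 10 receptor and adaptor genes higher and 0 lower. Under it Tlr4, Tlr5, Tlr8 and Klf10 reversed to 0.87, 1.21, 0.74 and 0.81. A minimum mean of 2 FPKM left 7 of the 10 genes, with 1 lower, because Tlr5, Tlr6 and Tlr8 lie under it. Tlr3, which did not pass, changed sign to -0.22 with quantile normalization and -0.18 with macrophage marker scaling, and lay between -0.030 and 0.044 with 1 library left out, at -0.011 without WT replicate 2 and at -0.030 without KLF10AKO replicate 4. With TPM 63.4% of passing genes were higher, with quantile normalization 41.2%, with macrophage marker scaling 41.2% and with adipocyte marker scaling 99.4%, against 53.0% as the authors scaled them. Leaving out 1 library gave 5991 to 6269 genes higher and 5307 to 5593 lower, and 6 and 3 of the 10 genes. With the replicate block 6220 genes rose and 5506 fell, and no call on the 10 genes changed. Depth limits Tlr8 in KLF10AKO and Tlr9 in WT, at 20 reads in their lowest libraries.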
